A study of Mus musculus with 6 samples.

Results

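Type I interferon-stimulated genes are the antiviral genes that cells switch on after sensing interferon, and 40 of them were followed in the small intestinal epithelium of young and aged mice. They were chosen by gene symbol in the table of counts per gene. Of the 40 symbols, 39 had a row among 46078 genes, and 38 had enough counts to be tested among 14923 genes. Ifi27l2a was too low to test, and Ifit1bl1 had no row under that symbol. The row named Gm14446 carries the gene identifier (ENSMUSG00000079339) that the GENCODE M21 annotation gives to Ifit1bl1, so its values are described separately and are in no count of members.

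The mice were C57BL/6JRj, untreated, and 2 to 3 months old in the young group and 20 to 22 months old in the aged group. Epithelial cells of the proximal small intestine were freed by EDTA and trypsin and sorted as EpCam-positive and CD45-negative cells, and poly(A) RNA was sequenced from 3 young and 3 aged mice. Each library was taken as 1 mouse. The labels give neither sex nor batch, and number no replicates, so replicates are numbered in the order of the records.

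Type I interferons (the interferon-alpha genes and interferon-beta) bind the receptor made of Ifnar1 and Ifnar2, and type III interferons (the interferon-lambda genes) bind Ifnlr1 with Il10rb, a receptor found mainly on epithelia. Both receptors act through the kinases Jak1 and Tyk2 and lead to a complex that holds Stat2 and Irf9 and binds interferon-stimulated response elements (ISREs) near its target genes. The products of these genes sense foreign RNA, degrade it or block its translation. Interferon-gamma acts through another receptor and shares part of the target genes.

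Libraries held 41479573 to 58989166 counts, and the 39 members made up 0.150 to 0.176% of them. Levels are CPM values, in which TMM factors bring each library's counts to the same total, and are listed for replicates 1, 2 and 3 in that order. A count of 0 allows a level of up to 0.0507 to 0.0720 CPM, which covers counting error only. Summed over Epcam, Cdh1, Vil1 and Krt8, epithelial markers stood at 5983 to 6288 CPM in young and 5685 to 6066 CPM in aged libraries, and Ptprc, which encodes CD45, at 0.168 to 0.287 and 0.196 to 0.275 CPM. In bulk RNA, fewer cells of a type and less RNA per cell cannot be told apart.

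No member passed the test between ages. Across all genes tested, 1.41% were called (0.623% higher and 0.784% lower in aged mice, by edgeR's quasi-likelihood fit at a Benjamini-Hochberg adjusted p under 0.05), against 0 and 0 of 38 members. With limma-voom the count was also 0, and with DESeq2 it was 1 higher (Dhx58) and 1 lower (Ifi27). At an unadjusted p below 0.05, 5 members were higher (13.2%, where all genes gave 3.9%) and 1 was lower (2.63%, where all genes gave 5.33%). The 5 were Dhx58, Zbp1, Irf9, Adar and Helz2, and the lower one was Ifi27. With 1 library left out, the count of 5 became 1, 12 or 2 (young replicate 1, 2 or 3 omitted) and 2 or 11 (aged replicate 2 or 3 omitted), and the count of 1 lower became 2 on omission of aged replicate 1.

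The log2 fold changes of the members, aged over young, ran from -0.42 to 0.73 with a median of 0.17, and the median over all genes tested was 0.0065. Of the 38 members, 29 (76.3%) lay above 0, where 51.8% of all genes did. With upper-quartile scaling 27 did. The count was 26 without young replicate 1 or 3, 32 without young replicate 2 and 24 without aged replicate 2. On omission of aged replicate 2 the members' median was 0.10, and on omission of aged replicate 3 it was 0.27. The 95% interval of the fold change lay below a 2-fold rise in 28 members and reached it in the other 10, among them Mx1, Oas3, Ifi44 and Rsad2.

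**Figure D1:**
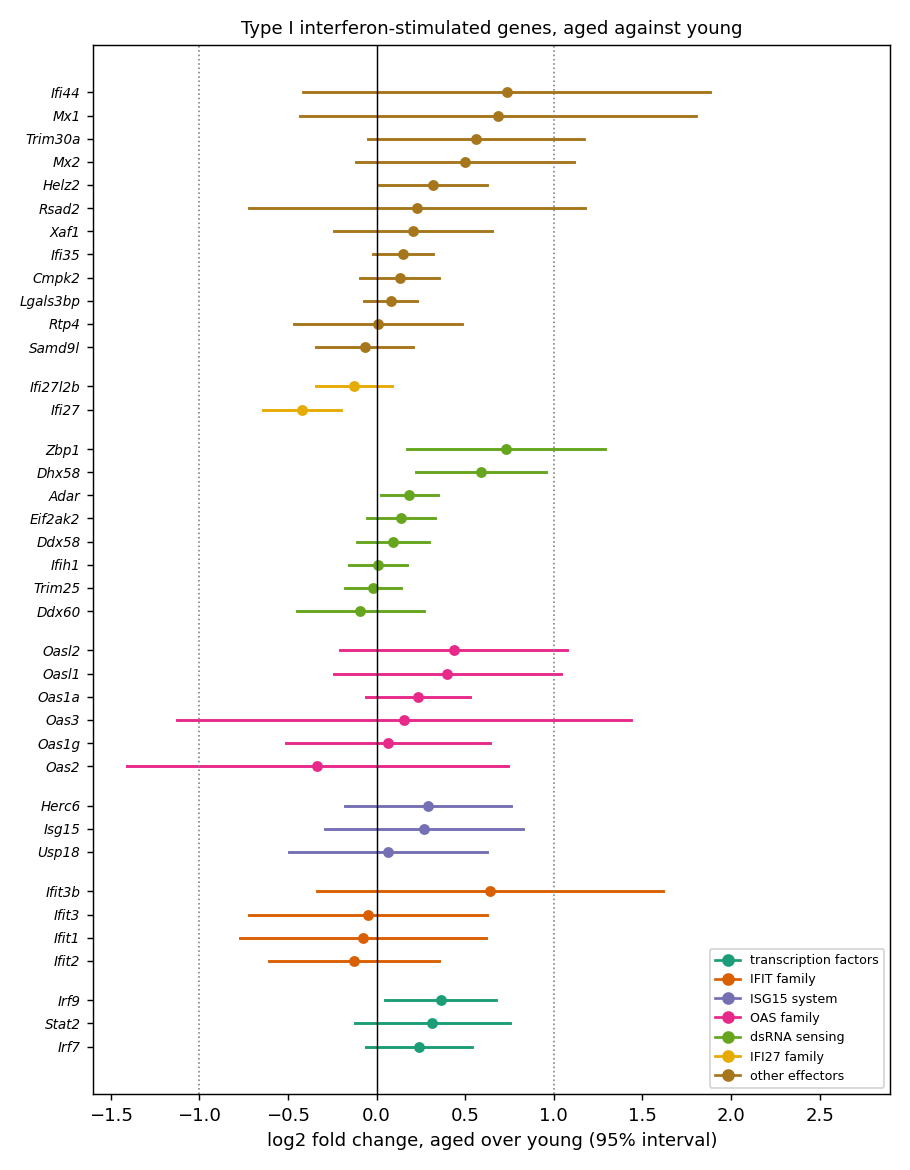
Log2 fold change of each tested member, aged over young (points), with its 95% interval (lines), grouped by role; dotted lines mark a 2-fold change in either direction. The intervals of 28 members end below the 2-fold line on the right, and those of Ifi27 and Dhx58 lie wholly on opposite sides of 0.

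The age groups did not overlap in 5 members. Adar, Dhx58, Ifi35 and Lgals3bp were higher in every aged library than in any young library, 10.5% of the tested members where all genes gave 6.3%. Ifi27 was lower in every aged library, 2.63% of the members where all genes gave 7.49%. In the other 33 tested members the groups overlapped.

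In levels per exon length the members spanned a wide range. Lgals3bp, a secreted glycoprotein that binds galectins, stood highest with a young mean of 186.5 CPM per kilobase, followed by Ifi27l2b with 136.4. Trim25 and Ifi35 followed with 29.8 and 29.7 CPM per kilobase. Among genes of antiviral proteins, Eif2ak2 stood at 9.08, Oas1a at 5.20, Isg15 at 4.80, Ifit1 at 0.982, Rsad2 at 0.796 and Mx1 at 0.305 CPM per kilobase in young mice.

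**Figure D2:**
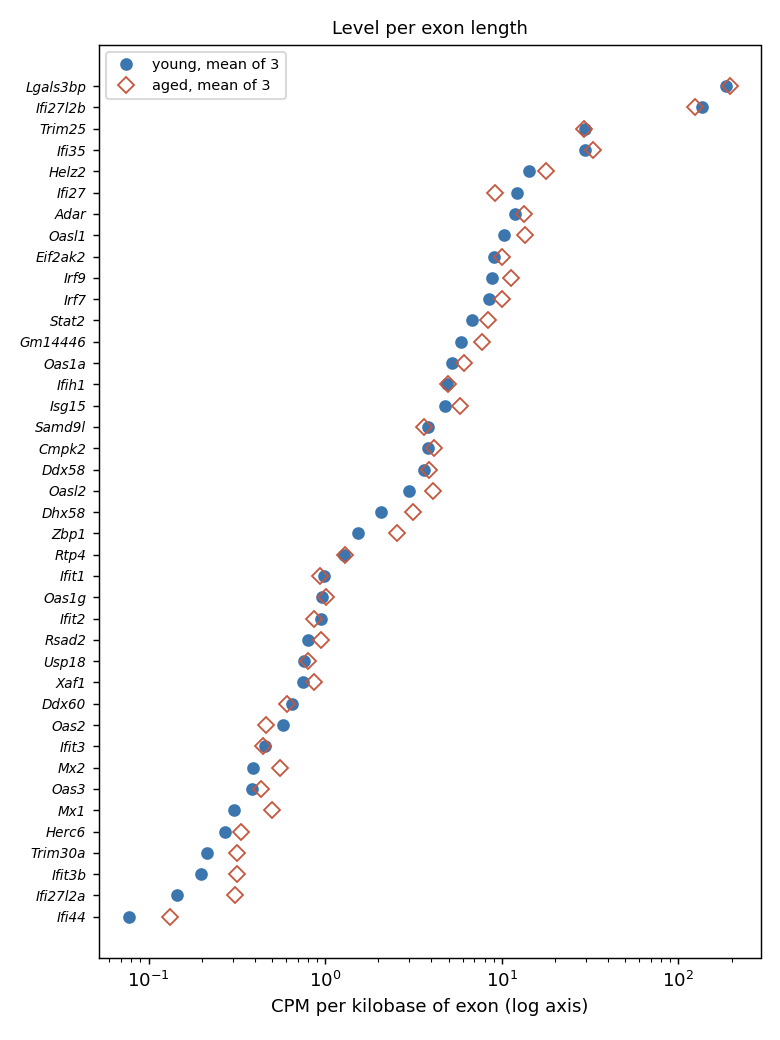
Mean level of each member and of Gm14446, in CPM per kilobase of exon on a log axis, for 3 young (filled circles) and 3 aged libraries (open diamonds), ordered by the young mean. Lgals3bp (186.5 in young, 197.1 in aged) stands at the top and Ifi44 (0.0775 and 0.132) at the bottom.

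The DNA motif that the complex with Stat2 and Irf9 recognises was present near the starts of some members. The stretches below hold it before the start. Ddx60, Ifit1bl1 and Trim30a hold it there too and are not shown. Promoter windows of 300 bases, 250 before to 50 after the start (RefSeq, GRCm38.p6), were found for 30 of the 40 symbols. The ISRE core searched was GAAA, any 2 bases and GAAA again, or TTTC, any 2 bases and TTTC for the other strand, with overlapping matches kept. It occurred in 15 of the 30 matched genes (50%, Wilson 95% interval 33.2 to 66.8%) and in 3.99% of all 27025 genes with a window. The core of a gamma-activated site, TTCNNNGAA, an element of the interferon-gamma response, occurred in 5 of the 30 (16.7%) and in 9.55% of all genes. These searches describe letters in a window and do not show binding. In the stretches below, read 5′ to 3′ on the gene's strand, capitals mark the ISRE core, and where cores overlap the capitals run on.
Isg15, chr4:156200867-156200904, minus strand: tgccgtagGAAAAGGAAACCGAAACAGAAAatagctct
Ifit1, chr19:34640777-34640821, plus strand: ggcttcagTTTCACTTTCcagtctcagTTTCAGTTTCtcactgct
Ifit3, chr19:34583365-34583424, plus strand: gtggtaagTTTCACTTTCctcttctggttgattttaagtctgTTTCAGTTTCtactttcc
Ifit3b, chr19:34607761-34607820, plus strand: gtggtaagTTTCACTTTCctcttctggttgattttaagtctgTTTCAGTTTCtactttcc
Oas1a, chr5:120907526-120907553, minus strand: cttctcggGAAATGGAAACTGAAAatct
Oas1g, chr5:120887614-120887639, minus strand: cttctcggGAAATGGAAACTGAAAat
Rsad2, chr12:26456555-26456580, minus strand: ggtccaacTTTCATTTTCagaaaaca
Stat2, chr10:128270268-128270293, plus strand: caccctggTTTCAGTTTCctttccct
Oas3, chr5:120777717-120777742, minus strand: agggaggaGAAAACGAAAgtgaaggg

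Isg15 held 3 overlapping cores, the first 78 bases before the RefSeq start. Ifit3 and its neighbour Ifit3b were identical over the 60 bases shown, and Oas1a and Oas1g over 26 bases. The core lay 120 bases before the start in Rsad2 and 222 bases before it in Stat2. Members with an ISRE core (14 tested) had a median log2 fold change of 0.15 and those without (15 tested) of 0.21. Within age groups, the members with a core had a median SD of 0.32 on the log2 CPM scale and those without 0.22. The 2 sets were not matched for level. Young means ran from 0.396 (Ifit3b) to 46.4 CPM (Eif2ak2) with a core and from 0.475 (Ifi44) to 531 CPM (Lgals3bp) without. A link between the core and the spread was not tested.

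Over the whole genome, 380 tested genes had an ISRE core in a window. Of these, 11 (2.89%) were called higher in aged mice (edgeR adjusted p below 0.05) and 4 lower. Over all genes tested, 0.623% were called higher and 0.784% lower. Since no member was called, none of these 11 was a member. The 11 included Gbp2, Gbp7, Igtp, Irgm1, Irgm2 and Tgtp2, GTPases of the interferon-gamma response, and Ifitm3, a restriction factor of viral entry. The median log2 fold change was 0.03 over tested genes with a core and 0.0078 over those without.

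Of the 3 transcription factors, none was called, and all had log2 fold changes above 0. Stat2, a subunit of the ISRE-binding complex (chr10:128270559-128292849), stood at 33.6, 49.7 and 36.7 CPM in young and 52.4, 59.2 and 37.9 CPM in aged libraries. Young replicate 2 was high and aged replicate 3 low, so the groups overlapped, with a fold of 1.24 (95% interval 0.919 to 1.68, edgeR adjusted p = 0.740).

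Irf9, the DNA-binding subunit (chr14:55603571-55610030), stood at 43.9, 56.2 and 42.5 CPM in young and 67.7, 65.0 and 50.6 CPM in aged libraries. Only the pair of young replicate 2 and aged replicate 3 broke the separation. The fold was 1.284 (1.03 to 1.59, edgeR adjusted p = 0.414). Irf7, which drives the interferon genes themselves in infected cells (chr7:141262706-141266481), stood at 28.8, 37.5 and 29.2 CPM in young and 42.5, 38.1 and 32.4 CPM in aged libraries, a fold of 1.18 (0.959 to 1.45, edgeR adjusted p = 0.690). It shared the library order of Irf9, with young replicate 2 highest of the young and aged replicate 3 lowest of the aged libraries.

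The IFIT proteins bind viral RNA and block its translation, and their genes lie side by side on chromosome 19. All 4 tested members were low, and the groups overlapped in each. Ifit1, which recognises RNA with an incomplete cap, stood at 2.55, 3.21 and 2.06 CPM in young and 3.53, 2.41 and 1.53 CPM in aged libraries (fold 0.948, 95% interval 0.586 to 1.54). Ifit2 stood at 4.32, 2.72 and 4.18 CPM in young and 3.02, 3.55 and 3.67 CPM in aged libraries (fold 0.917, 0.658 to 1.278). Young replicate 2 was the lowest of all libraries in Ifit2 and the highest young library in Ifit1. Ifit3 and Ifit3b had means of 0.802 and 0.396 CPM in young and 0.774 and 0.637 CPM in aged libraries. Ifit3 and Ifit3b are near-identical copies, so their counts are uncertain.

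Gm14446 (Ifit1bl1 in GENCODE M21, chr19:34592891-34601956) was more abundant than the 4 tested IFIT members, at 5.92 CPM per kilobase in young mice. Its level was 12.4, 18.0 and 9.75 CPM in young and 24.0, 19.0 and 9.48 CPM in aged libraries. Aged replicate 3 was the lowest of the 6 libraries, and the fold of 1.30 had an interval of 0.718 to 2.36 (edgeR adjusted p = 0.859).

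The ISG15 system attaches the ubiquitin-like protein Isg15 to other proteins. Isg15 itself (chr4:156199424-156200818) stood at 3.32, 4.68 and 2.88 CPM in young and 4.29, 5.59 and 3.32 CPM in aged libraries. Groups overlapped, and the fold was 1.205 (95% interval 0.818 to 1.77, edgeR adjusted p = 0.846). Herc6, the main ligase for Isg15 in mice, stood at 3.00, 2.20 and 2.40 CPM in young and 3.42, 3.33 and 2.55 CPM in aged libraries (fold 1.22, 0.885 to 1.69). Usp18, which removes Isg15 and dampens signalling at Ifnar2, stood at 1.57, 2.69 and 2.14 CPM in young and 2.45, 2.46 and 1.82 CPM in aged libraries (fold 1.05, 0.709 to 1.54). None of the 3 separated the ages.

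OAS enzymes make 2′-5′-linked oligoadenylates that activate RNase L, and the OAS-like genes Oasl1 and Oasl2 are their relatives. Oasl1, an OAS-like protein that restrains translation of Irf7 (chr5:114923240-114937915), had the highest level of the family per exon length, 10.3 CPM per kilobase in young mice. Its libraries held 21.02, 36.9 and 22.5 CPM in young and 46.5, 33.7 and 26.2 CPM in aged mice, a fold of 1.32 (95% interval 0.845 to 2.06, edgeR adjusted p = 0.798). Oasl2 stood at 15.8, 24.9 and 16.7 CPM in young and 24.4, 35.7 and 17.7 CPM in aged libraries, a fold of 1.35 (0.868 to 2.11, edgeR adjusted p = 0.766). In both genes young replicate 2 lay within the aged range.

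Oas1a stood at 9.21, 10.7 and 9.48 CPM in young and 10.5, 13.2 and 10.9 CPM in aged libraries, where young replicate 2 exceeded aged replicate 1 (fold 1.18, 0.961 to 1.44). Oas2 and Oas3 were widely spread. Oas3 stood at 2.12, 4.94 and 1.10 CPM in young and 2.94, 4.56 and 1.75 CPM in aged libraries. Oas2 had a log2 fold change of -0.34, which was 0.37 without young replicate 2. Oas1g, a close copy of Oas1a whose counts are uncertain for that reason, had means of 2.25 and 2.36 CPM. No OAS family member was called among 6.

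Among 8 genes of RNA sensing and response, Dhx58 and Zbp1 had the largest fold changes. Dhx58, which encodes the RIG-I-like protein LGP2 (chr11:100694884-100704271), stood at 6.01, 7.68 and 6.75 CPM in young and 10.3, 12.02 and 8.47 CPM in aged libraries. All 3 aged libraries exceeded the 3 young ones, by a fold of 1.504 (95% interval 1.17 to 1.94). Its edgeR adjusted p was 0.164, between 0.0276 (DESeq2) and 0.576 (without aged replicate 2) over the alternatives. Exons of Dhx58 overlap the antisense gene Dhx58os over 141 bases, and the strand setting of the counting is not given, so part of its count may belong to that gene.

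Zbp1, a sensor of Z-form nucleic acids that can start necroptosis (chr2:173206612-173218923), stood at 4.53, 6.44 and 5.21 CPM in young and 9.13, 11.9 and 5.95 CPM in aged libraries. Aged replicate 3 fell inside the young range, and the fold of 1.66 (1.13 to 2.44) had an edgeR adjusted p of 0.309, with 0.0547 to 0.852 over the alternatives. Adar, the RNA editing enzyme that marks the cell's own RNA as self (chr3:89715022-89753446), stood at 91.7, 100.7 and 95.4 CPM in young and 108.1, 114.6 and 104.6 CPM in aged libraries. Its groups did not overlap, though the fold was 1.14 (1.02 to 1.27, edgeR adjusted p = 0.420). Exons of Adar overlap the antisense gene Chrnb2 over 1365 bases, so part of its count may belong to that gene.

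The RNA sensors proper differed little between the ages, and none was called. Ddx58, which encodes RIG-I, had means of 25.7 ± 1.93 and 27.4 ± 1.09 CPM (SD, n = 3 each). Ifih1, which encodes MDA5, had means of 40.1 ± 0.855 and 40.3 ± 1.03 CPM, and its 95% interval of the fold ran from 0.899 to 1.13. The sensors' partner Trim25, a ubiquitin ligase, stood at 174.9, 178.7 and 160.6 CPM in young and 169.5, 172.3 and 165.2 CPM in aged libraries (fold 0.986, 0.884 to 1.10). These 3 genes varied little from library to library. Eif2ak2, the kinase PKR that halts translation, and the helicase gene Ddx60 had folds of 1.10 and 0.938, and their groups overlapped.

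The IFI27 family lies on chromosome 12 and encodes small membrane proteins. Ifi27 (chr12:103434211-103440239) stood at 17.4, 18.7 and 17.8 CPM in young and 12.6, 13.6 and 14.0 CPM in aged libraries. The 3 aged libraries lay below all young ones, with a fold of 0.747 (95% interval 0.642 to 0.868). The edgeR adjusted p was 0.0858, and over the alternatives it ran from 0.00564 with DESeq2 to 0.316 without aged replicate 1. Its neighbour Ifi27l2b stood at 148.4, 158.1 and 140.6 CPM in young and 153.1, 135.8 and 120.9 CPM in aged libraries. There the groups overlapped (fold 0.916, 0.790 to 1.06). Ifi27l2a had 0, 9 and 2 counts in young and 7, 8 and 6 counts in aged libraries and was not tested.

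Of the 12 other effectors, none was called and 11 had log2 fold changes above 0, or 10 with upper-quartile scaling, where Rtp4 lay below 0. Lgals3bp (chr11:118392751-118402092) stood at 517.3, 535.4 and 540.6 CPM in young and 544.9, 572.8 and 566.0 CPM in aged libraries. The groups did not overlap, yet the fold was 1.06 (95% interval 0.953 to 1.17, edgeR adjusted p = 0.828). Helz2, a helicase that coactivates nuclear receptors (chr2:181227615-181242027), stood at 163.1, 191.6 and 139.1 CPM in young and 238.7, 193.8 and 183.3 CPM in aged libraries. Young replicate 2 exceeded aged replicate 3 there, and the fold was 1.247 (1.01 to 1.54, edgeR adjusted p = 0.499).

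Ifi35, a leucine zipper protein (chr11:101448407-101458698), stood at 53.3, 50.5 and 50.1 CPM in young and 59.3, 57.8 and 53.6 CPM in aged libraries, with a fold of 1.11 (0.988 to 1.24, edgeR adjusted p = 0.632). The gap between its groups was narrow, since young replicate 1 and aged replicate 3 nearly met. Exons of Ifi35 overlap the antisense gene Gm11626 over 290 bases, so part of its count may belong to that gene. Mx1 and Mx2 encode dynamin-like GTPases that block virus particles, and Mx1 carries a deletion in many inbred strains, C57BL/6 among them. Mx2 is listed as a polymorphic pseudogene in GENCODE M21. Mx1, named here for its spread, stood at 0.660, 1.96 and 0.840 CPM in young and 2.70, 2.08 and 0.909 CPM in aged libraries. Rsad2, which encodes viperin and was named for the same reason, stood at 2.48, 5.78 and 2.09 CPM in young and 5.13, 4.61 and 2.55 CPM in aged libraries. In both genes young replicate 2 sat with aged replicates 1 and 2, and aged replicate 3 with the other young libraries. Cmpk2, a mitochondrial nucleotide kinase next to Rsad2 on chromosome 12, stood at 15.1 to 16.8 CPM in young and 16.0 to 18.0 CPM in aged libraries. Samd9l, Mx2, Trim30a, Rtp4, Xaf1 and Ifi44 had log2 fold changes between -0.07 and 0.73, with overlapping groups.

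**Figure D3:**
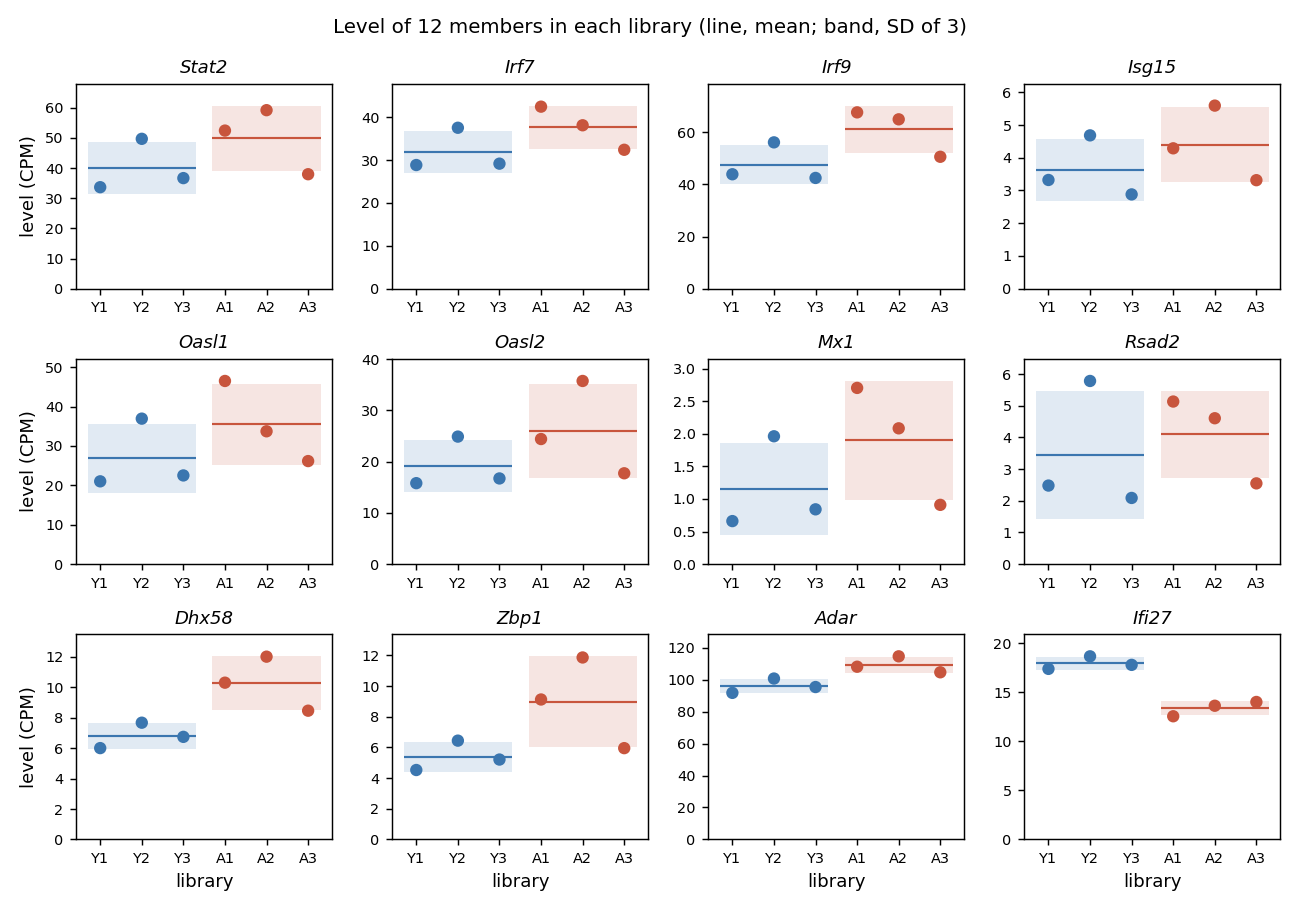
Level (CPM, axes from 0) of 12 members in young (Y1 to Y3, blue) and aged (A1 to A3, red) libraries, with the group mean as a line and the SD of 3 libraries as a band. Dhx58, Adar and Ifi27 separate the groups, while in Stat2, Irf9, Oasl1, Mx1 and Rsad2 the library Y2 lies above A3.

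The same libraries were high and low across many members. Young replicate 2 was the highest young library and aged replicate 3 the lowest aged library in 24 of 38 members (63.2%), where this order held in 19.4% of 14898 genes with a count in every library. The order was noticed in the values and then counted, and it is given as a description. Relative to the mean of the young libraries, the median member had a log2 level of -0.07, 0.15 and -0.10 for the young replicates, and of 0.21, 0.26 and -0.03 for the aged ones. Aged replicate 3 thus lay within the young range, and young replicate 2 came close to the other aged libraries. Over all genes tested these medians lay between -0.0049 and 0.0068.

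The highest library exceeded the lowest by a factor of 2 or more in 13 members, and in all 13 young replicate 2 was the highest young library. The widest were Ifi44 (4.97), Oas3 (4.47), Mx1 (4.10) and Oas2 (3.53). The narrowest were Ifih1 (1.05), Lgals3bp (1.11) and Trim25 (1.11). The median SD within age groups was 0.24 on the log2 scale over the members. It was 0.15 over all genes tested and 0.15 over the 5330 genes between the members' abundance quartiles.

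**Figure D4:**
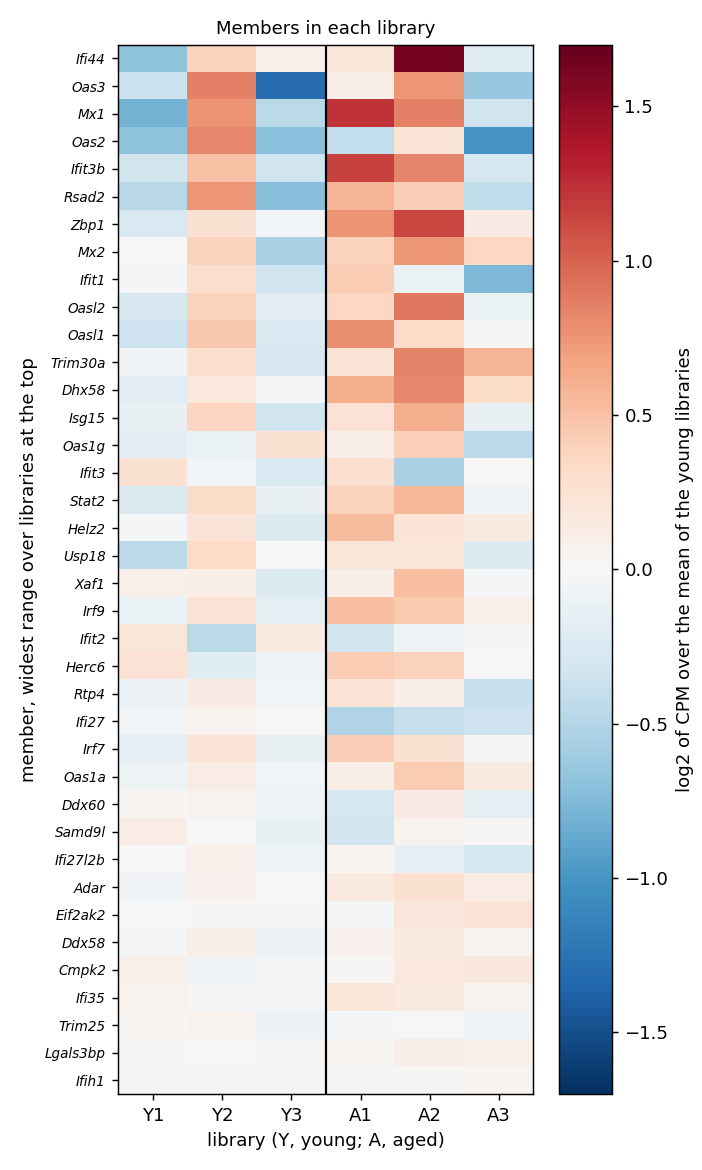
Log2 of the CPM of each tested member over the mean of the young libraries, in each library (Y, young; A, aged), with the widest range at the top. In the upper rows Y2, A1 and A2 are mostly red and Y1, Y3 and A3 mostly blue; in the lowest rows (Trim25, Lgals3bp, Ifih1) all 6 libraries are near 0.

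Markers of other cell types were compared over the same libraries. Summed over Csf1r, Adgre1, Lyz2, Cd68, Itgax and Clec9a, macrophage and dendritic cell markers stood at 12.2, 19.5 and 13.5 CPM in young and 17.8, 19.1 and 11.9 CPM in aged libraries. Young replicate 2 and aged replicates 1 and 2 were the highest here too. Cd68, a lysosomal glycoprotein, made up most of this sum, at 9.53, 17.2 and 9.39 CPM in young and 15.7, 17.0 and 9.52 CPM in aged libraries. Lyz2, the lysozyme gene of macrophages, ran in another order, at 2.64, 2.30 and 4.03 CPM in young and 1.96, 2.04 and 2.19 CPM in aged libraries. Of the list's defining surface markers, Itgax stood at 0 to 0.0455 CPM in young and 0.0845 to 0.143 CPM in aged libraries, Clec9a had 0 counts in all 6 libraries, Adgre1 1 count in each of 2 libraries, and Csf1r at most 0.120 CPM. Plasmacytoid dendritic cell markers (Siglech and Ccr9) summed to 0.136 to 0.152 CPM in young and 0.148 to 0.232 CPM in aged libraries. T lymphocyte markers summed to 3.12 to 3.98 CPM in young and 3.55 to 7.44 CPM in aged mice, and 1 of the 7, the integrin gene Itgae, rose (fold 2.93, edgeR adjusted p = 0.0129). Goblet cell markers (Muc2, Tff3 and Clca1) summed to 3706, 5557 and 4190 CPM in young and 3099, 3511 and 2631 CPM in aged libraries, and B and plasma cell markers to 0.523, 0.812 and 0.384 CPM and 0.929, 1.38 and 0.553 CPM. In both lists young replicate 2 was the highest young and aged replicate 3 the lowest aged library. Paneth cell markers (Lyz1, Defa24 and Defa17) summed to 6481 to 11912 CPM in young and 4939 to 5337 CPM in aged libraries. Tff3 and Defa17 were the genes of these 3 lists that passed the test, and both fell (folds 0.630 and 0.460, edgeR adjusted p = 0.0498 and 0.0373). The part of these cells, or of other cells, in the members' levels was not tested.

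In these sorted CD45-negative cells the interferons themselves were at or near 0, and other cells of the tissue were not measured. For 18 symbols of type I interferons the table held 19 rows, of which 16 had 0 counts in all 6 libraries, Ifnb1 among them. The other 3 were Ifnab with 6 counts in all, and Ifne and Ifnz with 1 count each. Of the type II and III genes, Ifnl3 had no count, and Ifng and Ifnl2 had 1 count each. At these depths a count of 0 does not exclude levels up to the limits given above.

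Of 9 receptor and kinase genes none was called, and their median log2 fold change was 0.01. Ifnar1 stood at 52.0, 49.4 and 53.9 CPM in young and 52.4, 49.9 and 52.6 CPM in aged libraries, a fold of 0.997 (95% interval 0.890 to 1.116). Ifnlr1, the epithelial type III receptor chain, stood at 17.2, 18.9 and 15.9 CPM in young and 26.6, 20.2 and 18.3 CPM in aged libraries, a fold of 1.252 (0.996 to 1.57, edgeR adjusted p = 0.553). Jak1 and Tyk2 had folds of 1.07 and 1.07, and Ifngr1, a chain of the interferon-gamma receptor, 1.01.

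Of 24 tested pathway genes outside the members, 2 (8.33%) rose in aged mice, where 0.623% of all genes did. None fell, where 0.784% of all genes did. Irf1, a transcription factor induced by interferon-gamma and type I interferons, rose from 190.6, 241.8 and 206.5 CPM in young to 338.7, 348.1 and 314.8 CPM in aged libraries, a fold of 1.57 (95% interval 1.35 to 1.82, edgeR adjusted p = 0.0130). All aged libraries exceeded all young ones. The call was lost when young replicate 1 or 3, or aged replicate 1 or 2, was omitted (edgeR adjusted p = 0.0506, 0.0564, 0.0765 and 0.0684). Tmem173, which encodes the DNA-pathway adaptor STING, rose from 4.30, 4.26 and 4.92 to 10.4, 11.97 and 6.59 CPM, a fold of 2.14 (1.53 to 3.00, edgeR adjusted p = 0.0461). Its call was lost when any library but aged replicate 3 was omitted (adjusted p 0.105 to 0.202), with limma-voom (0.103), with upper-quartile factors (0.0515) and with a filter of 1 CPM in 3 libraries (0.0665).

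The inducers of interferon genes other than Tmem173 were not called. Among these were Mavs, the adaptor of the RNA sensors, with a fold of 1.11, Irf3 with 0.990 and Mb21d1, which encodes cGAS, with 1.13. Myd88 and Tbk1, an adaptor and a kinase of this arm, had folds of 1.14 and 1.116 and were higher in every aged library (edgeR adjusted p = 0.376 and 0.570). Irf5 had a fold of 0.627 with overlapping groups, and Ikbke and Ticam1 both had folds of 1.05. The feedback inhibitors Socs1 and Socs3 had folds of 1.46 and 1.48 (edgeR adjusted p = 0.266 and 0.138), Ptpn2 of 0.900 and Pias1 of 1.03. Socs1 and Socs3 were higher in every aged library, where 6.3% of all genes were, and Ptpn2 was lower in every aged library, where 7.49% were.

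Interferon-gamma response genes gave other values in the same libraries. That list holds Irf1 and Socs1 as well. Of its 25 tested genes, 15 (60%) rose, where 0.623% of all genes did. None fell, where 0.784% of all genes did. The median log2 fold change was 1.56, against 0.17 for the type I members, of which 0 of 38 were called. In 24 of the 25 (96%) every aged library was higher than any young one, where all genes gave 6.3%. With 1 library omitted, the count of 15 became 7, 10 or 6 (young replicate 1, 2 or 3) and 10, 7 or 18 (aged replicate 1, 2 or 3). Relative to the young mean, the median gene of this list stood at 1.48, 1.66 and 1.14 (log2) in the aged libraries. Aged replicate 3 was the lowest of the aged libraries in both lists, but for the interferon-gamma genes it lay above the young libraries (-0.13, 0.12 and 0.00). The difference between the lists was not tested. Both lists were chosen with earlier results of these data known. Interferon-gamma and type I interferons share part of their target genes, so the lists do not separate the 2 responses.

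**Figure D5:**
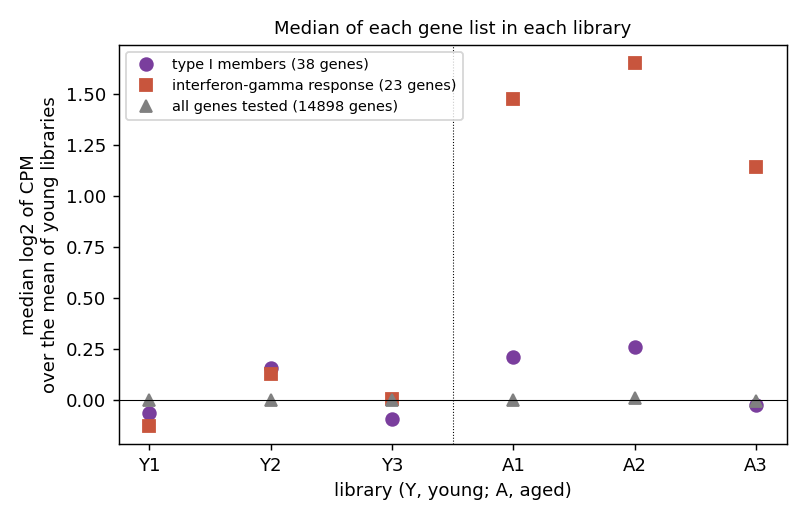
Median over genes of the log2 CPM relative to the mean of the young libraries, in each library, for the 38 type I members (circles), 23 interferon-gamma response genes with a count in every library (squares) and 14898 genes (triangles). The interferon-gamma medians are 1.14 to 1.66 in aged libraries, and the type I medians are -0.03 to 0.26.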

How the data were processed

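The authors' deposited table holds raw counts per gene (46078 Ensembl genes, 6 libraries) and is not normalized. The submitters' processing notes list featureCounts 1.6.4, STAR, HISAT2 2.1.0, StringTie 2.0 and DESeq2 1.28.1 among their tools, with the GRCm38 build and without role or order. Neither an annotation release nor a strand setting for the counts is given in the sources used here; the library kit was a stranded one, per the labels' protocols. Exons of 10 of the 40 rows described (39 members and Gm14446) overlap another gene, so those counts are less certain.

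Columns were matched to samples by the library code in the titles. Genes were filtered with filterByExpr (minimum count 10), scaled with TMM and tested with edgeR 4.0.16 (quasi-likelihood, robust, age as the term, R 4.3.3), adjusted by Benjamini-Hochberg over 14923 genes at 0.05. Intervals use the test's standard error. No pair of libraries from the same age group agreed within sampling noise (chi-square per gene at least 25.0). Alternatives were DESeq2 1.42.0, limma-voom (limma 3.58.1), RLE and upper-quartile factors, other filters, estimation without robustness and omission of single libraries. Scripts were checked on simulated data.

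The members, gene lists and tests were chosen with earlier results of these data known. Values in all libraries are given for members with an unadjusted p below 0.05, members whose groups do not overlap, the transcription factors and the 2 most abundant members of each role. Those of Usp18, Oas1a, Oas3, Mx1 and Rsad2 were added after the values were seen. Exon lengths and gene positions are from GENCODE M21 (GRCm38, 1-based). Protein sequences were not used here. The result of 1 other pathway gene is not reported here.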

Additional observations from a re-analysis of the deposited data

How the results depend on the processing

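No paired analysis was possible because the labels give no replicate numbers. No member was called with limma-voom, RLE or upper-quartile factors, the filter of 1 CPM in 3 libraries, estimation without robustness or any single library left out. With DESeq2, 1 member was called higher (Dhx58) and 1 lower (Ifi27), and without a filter 1 was called higher (Dhx58). Over all genes, DESeq2 called 206 higher and 276 lower, the fit without a filter 168 and 245, and the filter of 1 CPM left 67 lower, against 93 and 117. Leaving out single libraries gave 35 to 135 higher and 30 to 135 lower. Members with an unadjusted p below 0.05 numbered 1 to 12 higher and 1 to 2 lower in those fits, other pathway genes called higher 0 to 2, and interferon-gamma genes 6 to 18. The pathway count of 2 was 4 with DESeq2 and 1 with limma-voom, upper-quartile factors or the filter of 1 CPM. The causes were not tested.

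The log2 fold changes of some members changed sign between fits, that of Ifi44 (0.73) among them. Rtp4 (0.01) was -0.031 with limma-voom, -0.0066 with upper-quartile factors and -4.9e-06 with the filter of 1 CPM, and Ifih1 (0.01) was -0.0071 with upper-quartile factors. Without single libraries the ranges were -0.12 to 0.17 for Rtp4, -0.012 to 0.029 for Ifih1, -0.066 to 0.0034 for Trim25, -0.027 to 0.83 for Rsad2, -0.24 to 0.14 for Ifit3, -0.41 to 0.18 for Ifit1 and -0.013 to 1.06 for Ifi44. They were -0.70 to 0.37 for Oas2, -0.24 to 0.92 for Oas3, -0.14 to 0.26 for Oas1g, -0.14 to 0.039 for Samd9l, -0.11 to 0.27 for Usp18 and -0.23 to 0.00050 for Ddx60. The median of the members stayed between 0.10 and 0.27. With 3 libraries a group, small changes in widely spread members such as Mx1, Oas3 and Ifi44 were not detectable, since their intervals reached a 2-fold change.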

Other observations

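Ido1, which encodes a tryptophan-degrading enzyme of the interferon-gamma list, was singled out after its values were seen. It stood at 5.96, 22.6 and 3.74 CPM in young and 17.3, 14.6 and 5.99 CPM in aged libraries, the one tested gene of that list whose groups overlapped. Its highest young library was replicate 2 and its lowest aged library replicate 3, the order seen in 24 of the 38 type I members. Its log2 fold change was 0.21 (edgeR adjusted p = 0.973). Cxcl10, a chemokine of the same list, stood at 5.26, 8.03 and 2.93 CPM in young and 14.9, 14.6 and 8.38 CPM in aged libraries, so the same order held while the groups did not overlap.

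Among the tested genes outside the members with an ISRE core in a promoter window, those called higher and not named above were Apobec3, a cytidine deaminase that restricts retroviruses, Apol10a, Gm12185 and Gm12250. A longer core, the ISRE core with a C after it (or a G before it on the other strand), was found in 13 of the 30 matched members (43.3%) and in 0.944% of all genes with a window.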
